A study of Arabidopsis thaliana with 12 samples.

Results

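The ethylene signalling core of Arabidopsis thaliana was taken as 10 genes, selected by locus identifier from a table of 33330 features. They were the receptors ETR1 (AT1G66340), ERS1 (AT2G40940), ETR2 (AT3G23150) and EIN4 (AT3G04580), the kinase CTR1 (AT5G03730), EIN2 (AT5G03280), the transcription factors EIN3 (AT3G20770) and EIL1 (AT2G27050), and the F-box proteins EBF1 (AT2G25490) and EBF2 (AT5G25350). All 10 passed the filter on low counts, which left 20232 genes. CTR1 was selected because its count differed between the genotypes after heat and because it lies beside HD2C, so its own values are given here without a test. The other 9 were selected by role, and the question put to them was whether they moved with CTR1.

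RNA was sequenced from whole seedlings 6 days old, grown at 22 °C on half-strength agar medium with sucrose. The groups were the line labelled hd2b hd2c after 44 °C for 3 h, wild type (WT) after the same heat, the line labelled hd2b hd2c kept at 22 °C (normal), and WT kept at 22 °C, with 3 libraries each. HD2B and HD2C encode plant-specific histone deacetylases, the labels do not give the alleles of the line, and no ethylene treatment was part of the design. The labels do not say whether the libraries of a group were grown apart. The spread that the p-values use may therefore be technical.

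Ethylene is a gaseous hormone that plants make in response to stress, wounding and ripening cues. Its receptors sit in the endoplasmic reticulum membrane and, when no ethylene is bound, keep the kinase CTR1 active. CTR1 phosphorylates EIN2 and so holds it inactive. When ethylene binds, CTR1 is switched off, a part of EIN2 moves to the nucleus, and the transcription factors EIN3 and EIL1 accumulate and switch on ethylene-responsive genes. EBF1 and EBF2 mark EIN3 and EIL1 for degradation, and EBF2 is itself a target of EIN3. Loss of CTR1 gives seedlings that behave as if ethylene were always present.

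Total counts ran from 7737285 to 24030931 per library, with a median of 18936308. One library, hd2b hd2c heat replicate 2, was unlike the rest, with the lowest total and 34.1% of its counts in its 10 most abundant genes, compared with 16.3% to 24.8% in the other heat libraries. Scaling factors (TMM, trimmed mean of M values) ran from 0.424 to 0.744 in heat libraries and from 1.62 to 1.86 in normal libraries, so any heat difference depends on the scaling. All 5 shoot markers and all 5 root markers had counts in every group, and the seed storage markers summed to at most 4.03 CPM. CPM are counts scaled to a common library size, with the factors given above. Summed shoot markers were 60500 to 146000 CPM in hd2b hd2c heat and 88800 to 128000 CPM in WT heat, against 10900 to 15000 CPM in hd2b hd2c normal and 13500 to 14400 CPM in WT normal. The part of this shift in the heat results was not tested.

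The 2 genes for which the line is named went in opposite directions. HD2B was at 18.2, 14.0 and 23.5 CPM in hd2b hd2c heat and at 86.2, 80.7 and 90.6 CPM in WT heat, against 21.7, 22.8 and 26.9 CPM in hd2b hd2c normal and 40.3, 42.9 and 36.9 CPM in WT normal. HD2C was at 294, 354 and 326 CPM in hd2b hd2c heat and at 152, 143 and 151 CPM in WT heat. At normal temperature HD2C was at 106, 94.2 and 94.0 CPM in hd2b hd2c and at 39.8, 37.0 and 35.0 CPM in WT. HD2B was thus lower and HD2C higher in the libraries labelled hd2b hd2c, with no overlap between genotypes, and the HD2C count goes against the label. The counts are per gene, so they do not show which part of HD2C was transcribed. Every genotype difference below is one between the libraries labelled hd2b hd2c and those labelled WT.

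CTR1 was high in 1 of the 4 groups. It was at 215, 226 and 240 CPM in hd2b hd2c heat, from 3537, 742 and 4200 counts, and at 36.1, 40.9 and 33.3 CPM in WT heat, from 470, 463 and 398 counts. At normal temperature it was at 48.0, 46.6 and 43.7 CPM in hd2b hd2c and at 42.6, 36.8 and 41.5 CPM in WT. The 3 libraries of hd2b hd2c heat lay far above the other 9. Within the normal groups the hd2b hd2c libraries also lay above the WT libraries, but by little.

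In the fitted values CTR1 was 6.18-fold higher in hd2b hd2c heat than in WT heat, a log2 fold change of 2.63. The log2 fold change between genotypes at normal temperature was 0.19. Heat over normal was 2.30 in hd2b hd2c, or 4.92-fold, and -0.13 in WT, where the heat and normal libraries overlapped. The difference between these heat values was 2.43. No SE is given for CTR1, because it was chosen by its difference after heat. Leaving out hd2b hd2c heat replicate 2 gave 2.64 for the genotype after heat. In bulk seedlings, a change in the number of cells that express a gene and a change in its RNA per cell cannot be told apart.

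CTR1 and HD2C are neighbours that point away from each other in the TAIR10.1 annotation, CTR1 on the minus strand and HD2C on the plus strand. Beyond CTR1 lies HSFA3, a heat stress transcription factor on the minus strand. HSFA3 was at 20.2, 11 and 22.9 CPM in hd2b hd2c heat and at 4.30, 6.27 and 4.52 CPM in WT heat, against 3.76, 6.68 and 5.17 CPM in hd2b hd2c normal and 2.93, 4.36 and 4.25 CPM in WT normal. Its heat libraries did not overlap between genotypes, and it was 3.76-fold higher in hd2b hd2c heat (log2 fold change 1.91, SE 0.267, adjusted p = 0.000241, edgeR). Heat over normal passed the test for HSFA3 in hd2b hd2c (1.85, adjusted p = 1.04e-06) and not in WT (0.40, adjusted p = 0.205). The difference between these heat values did not pass (1.45, SE 0.369, adjusted p = 0.0941).

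On the other side, past HD2C and a transfer RNA gene, lies AT5G03750, annotated as an E3 ubiquitin ligase. It had 59, 11 and 75 counts in hd2b hd2c heat and 2, 0 and 2 counts in WT heat, against 7, 10 and 13 counts in hd2b hd2c normal and 0 counts in all 3 WT normal libraries. The remaining nearest features, AT5G03710 and the transfer RNA genes AT5G03705 and AT5G03745, had at most 14 counts in any group. HSFA3 overlaps AT5G03710, which lies on the opposite strand. The genes on both sides of CTR1 that had more than a few counts were therefore higher in hd2b hd2c heat than in WT heat, and HD2C and AT5G03750 also at normal temperature.

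**Figure D1:**
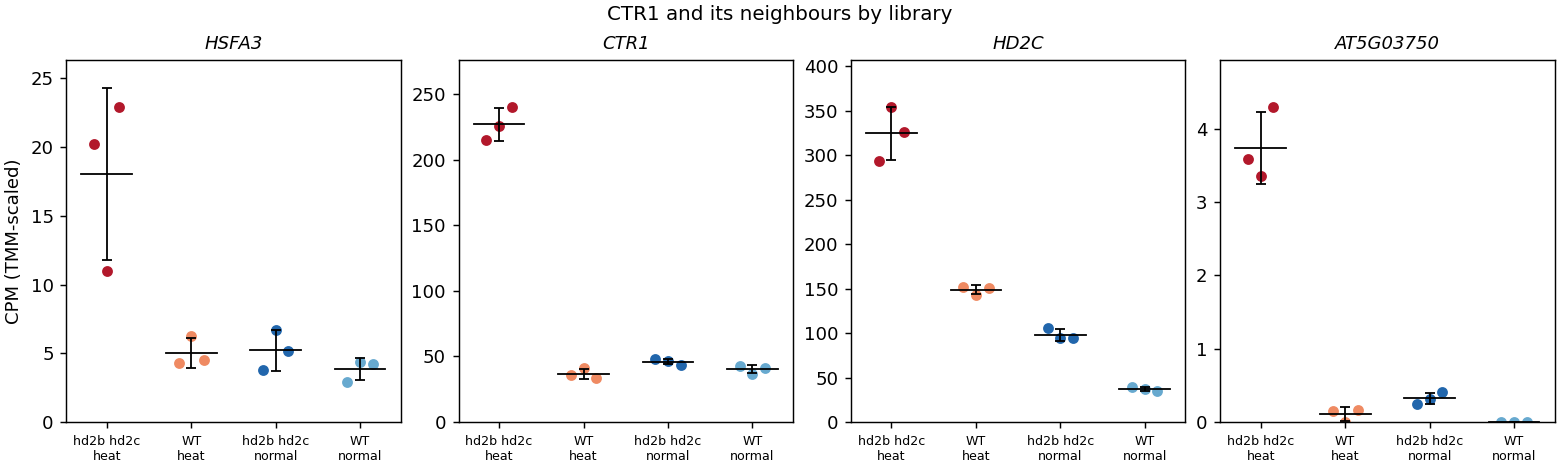
Normalised CPM of HSFA3, CTR1, HD2C and AT5G03750, which lie near each other in this order in TAIR10.1, in each of the 12 libraries, by group from hd2b hd2c heat to WT normal, with points for libraries and lines for group means and their SDs. CTR1 in hd2b hd2c heat sits between 215 and 240 CPM, above every other library, while HD2C is higher in the hd2b hd2c libraries under both conditions.

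CTR1 was also set against the receptors within each library, in a ratio that needs no scaling between libraries. CTR1 was selected for its difference between genotypes after heat, so a high ratio in hd2b hd2c heat follows from that. The ratio is a description and no separate support. CTR1 divided by the sum of the 5 receptors, each in CPM per kilobase of exon and with ERS2 as the fifth, was 3.57, 3.38 and 3.77 in hd2b hd2c heat and 0.604, 0.736 and 0.536 in WT heat. At normal temperature the ratio was 0.467, 0.443 and 0.375 in hd2b hd2c, against 0.402, 0.362 and 0.412 in WT. CTR1 transcript thus exceeded summed receptor transcript in hd2b hd2c heat and was below it in the other 3 groups.

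Per kilobase of exon, CTR1 had the highest mean of the 10 genes in hd2b hd2c heat, at 69.8 ± 3.9 CPM per kilobase (SD, n = 3). EBF2 followed at 61.7 ± 11.6 and EBF1 at 52.8 ± 8.39, and the difference between CTR1 and EBF2 was smaller than the SD of EBF2. In WT heat EBF2 led at 52.8 ± 1.78 CPM per kilobase, followed by EBF1 at 39.6 ± 2.2, EIN3 at 18.1 ± 2.87, CTR1 at 11.3 ± 1.17 and EIL1 at 10.7 ± 1.42. CTR1 and EIL1 did not differ there beyond their SDs. In both normal groups EBF1 had the highest mean level and CTR1 was sixth, at 14.2 ± 0.685 CPM per kilobase in hd2b hd2c normal and 12.4 ± 0.944 in WT normal. EIN4, a receptor without the histidine kinase activity of ETR1, was lowest in all 4 groups, at 0.996, 0.806, 2.82 and 2.98 CPM per kilobase in hd2b hd2c heat, WT heat, hd2b hd2c normal and WT normal.

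None of the other 9 genes differed between the genotypes after heat by as much as CTR1. By edgeR's quasi-likelihood F test over all genes, 0 of 9 passed an adjusted p of 0.05 at normal temperature, 0 after heat and 0 in the genotype by heat interaction, against 2.65%, 2.76% and 0.336% of all genes tested. Split by direction, 0.979% of all genes were called higher and 1.67% lower at normal temperature, 1.59% higher and 1.18% lower after heat, and 0.148% higher and 0.188% lower in the interaction. With shares this low, 0 of 9 does not set the core apart from other genes. At an unadjusted p under 0.05 the counts were 0 at normal temperature, 2 after heat (EBF1 and EIN2) and 1 in the interaction (EIN2), and DESeq2 called 0, 1 (EBF1) and 0. The median log2 fold change of the 9 genes was 0.05 at normal temperature, 0.13 after heat and 0.08 in the interaction, beside medians of 0.00, 0.00 and 0.01 over all genes. The 95% intervals after heat lay between -0.67 (EIN3) and 0.80 (EIN4), so a difference of the size fitted for CTR1, 2.63, lies outside all of them. CTR1 was chosen by this difference, so setting the 9 genes beside it is a description. Smaller shifts, up to the ends of these intervals, remain possible. At normal temperature the intervals lay between -0.67 (EIN3) and 0.64 (ETR1), and in the interaction between -0.72 (ETR1) and 1.04 (EIN4).

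**Figure D2:**
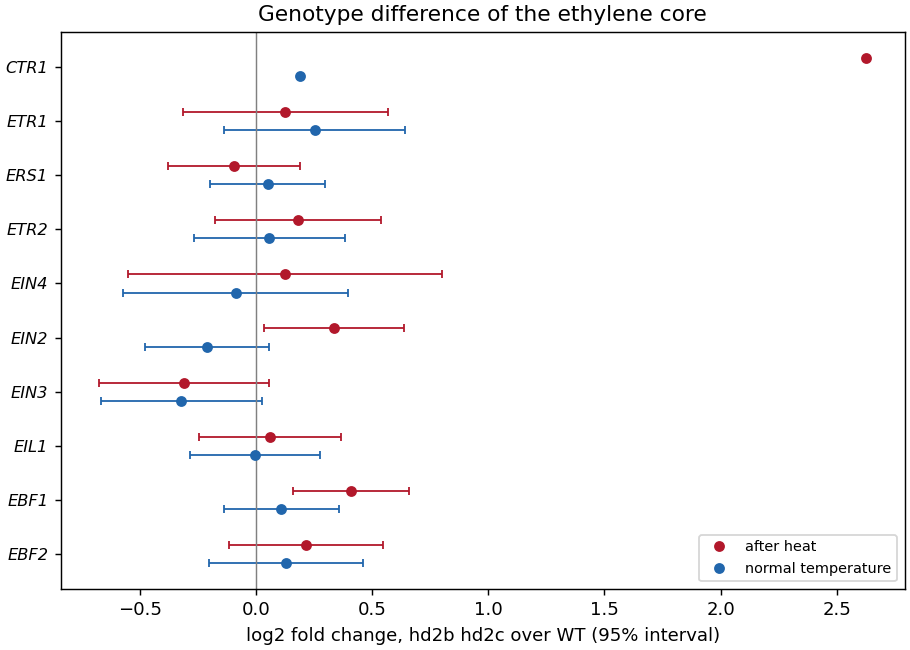
Log2 fold change of hd2b hd2c over WT for the 10 genes, after heat and at normal temperature. Bars are 95% intervals from edgeR, and CTR1 is drawn without one because it was chosen by this difference. CTR1 after heat stands at 2.63, whereas the intervals of the other 9 lie between -0.67 and 0.80.

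Among the receptors, ETR1 was at 13.5, 8.23 and 14.2 CPM in hd2b hd2c heat and at 14.1, 7.15 and 13.5 CPM in WT heat, and ETR2 averaged 14.9 ± 1.98 CPM in hd2b hd2c heat and 12.8 ± 2.18 CPM in WT heat (SD, n = 3 each). The log2 fold changes after heat were 0.13 for ETR1, -0.09 for ERS1, 0.18 for ETR2 and 0.13 for EIN4, and the libraries of the genotypes overlapped for each. At normal temperature ETR1 was at 18.7, 21.6 and 19.7 CPM in hd2b hd2c, against 18.5, 16.0 and 15.7 CPM in WT. These libraries did not overlap, but the log2 fold change of 0.25 (SE 0.189) did not pass the test (adjusted p = 0.638, edgeR).

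EIN2, the membrane protein that CTR1 phosphorylates, was at 24.8, 25.0 and 23.7 CPM in hd2b hd2c heat and at 16.2, 25.0 and 17 CPM in WT heat. At normal temperature it was at 51.0, 48.8 and 45.3 CPM in hd2b hd2c and at 59.6, 51.5 and 56.5 CPM in WT, where every hd2b hd2c library was below every WT library. The interaction was 0.55 (SE 0.194, 95% interval 0.15 to 0.95) with an adjusted p of 0.335 in edgeR. Over the alternatives its adjusted p ran from 0.081, without WT heat replicate 2, to 1. EIN2 is thus the member other than CTR1 with the lowest adjusted p in the interaction, but it does not pass there. By locus identifier EIN2 (AT5G03280) and CTR1 (AT5G03730) lie on the same chromosome, with nearby numbers. Whether position bears on the EIN2 values was not tested.

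EIN3, the main transcription factor of the pathway, was at 37.8, 19.8 and 44.6 CPM in hd2b hd2c heat and at 50.9, 44.9 and 36.9 CPM in WT heat, which overlap. At normal temperature it was at 40.2, 35.6 and 41.2 CPM in hd2b hd2c and at 48.1, 49.5 and 48.5 CPM in WT, which do not. The log2 fold change at normal temperature was -0.32 (SE 0.167) with an adjusted p of 0.418 in edgeR. A fit of only the groups compared gave 0.0409, and the other alternatives gave up to 0.977. EIL1, its close relative with an overlapping role, averaged 25.3 ± 6.58 CPM in hd2b hd2c heat and 25.3 ± 3.36 CPM in WT heat, against 44.0 ± 2.67 CPM in hd2b hd2c normal and 44.1 ± 1.82 CPM in WT normal (SD, n = 3 each).

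EBF1 came nearest to a genotype call after heat. It was at 154, 190 and 140 CPM in hd2b hd2c heat and at 120, 128 and 115 CPM in WT heat, with every hd2b hd2c library above every WT library. The log2 fold change was 0.41 (SE 0.12, 95% interval 0.16 to 0.66), with an adjusted p of 0.0694 in edgeR. It passed with DESeq2 (adjusted p = 0.0328), with no filter on low counts (0.0468) and without hd2b hd2c heat replicate 3 (0.0411), and over all alternatives the adjusted p ran from 0.0328 to 0.251. EBF2 was at 171, 218 and 152 CPM in hd2b hd2c heat and at 154, 150 and 160 CPM in WT heat, which overlap, with a log2 fold change of 0.21 (adjusted p = 0.535).

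**Figure D3:**
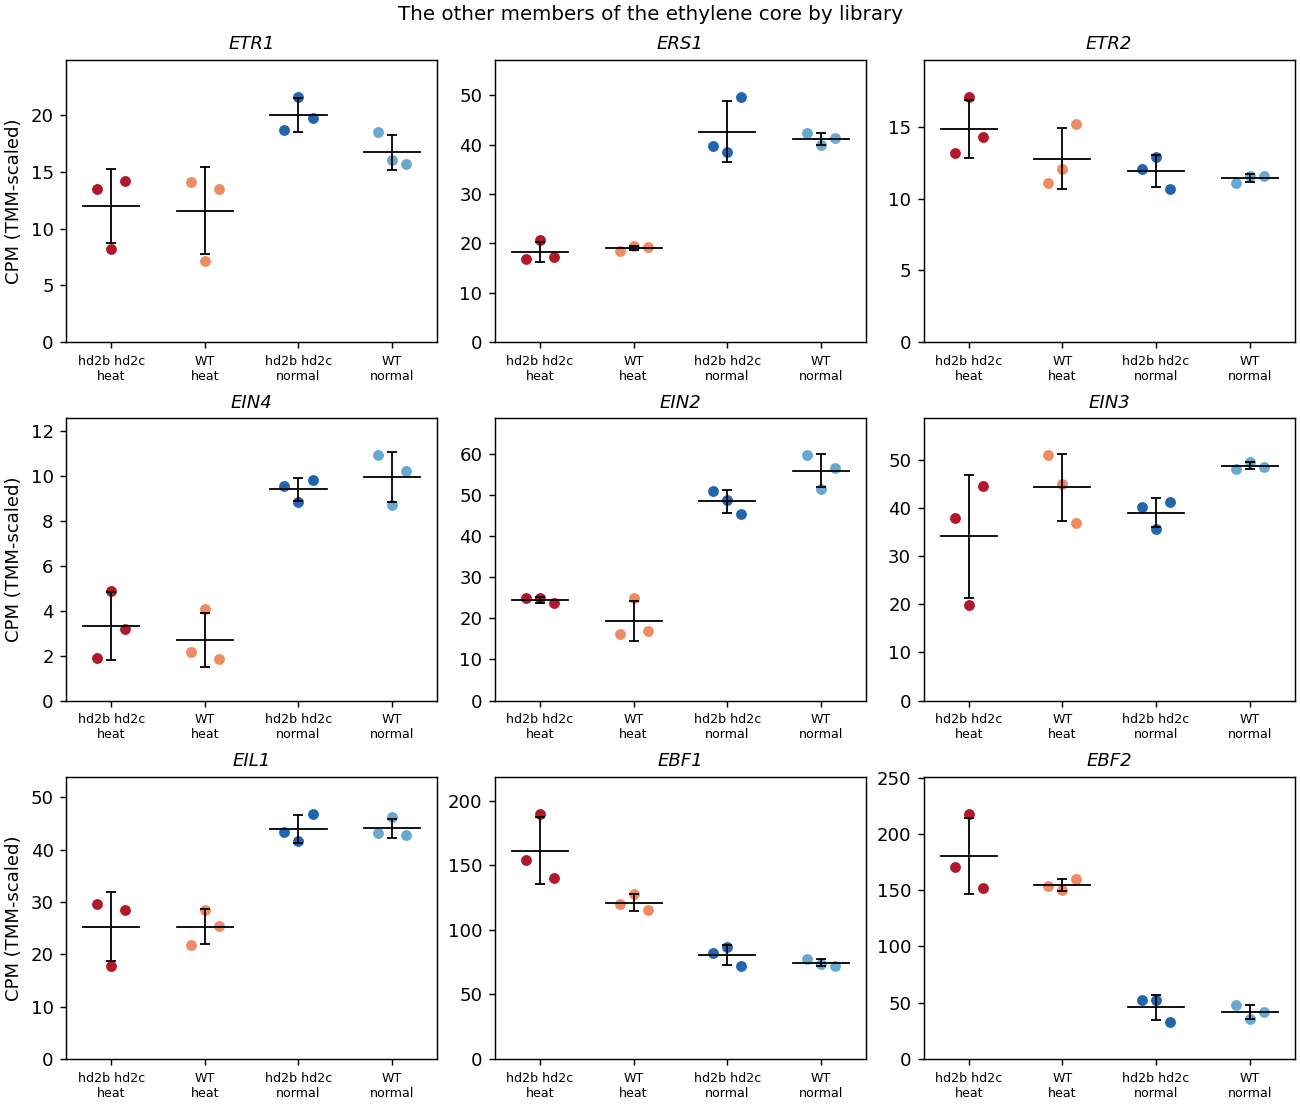
Normalised CPM of the 9 genes other than CTR1 in each library, by group from hd2b hd2c heat to WT normal. Points are libraries, and each horizontal line is a group mean with its SD. EBF1 and EBF2 are higher in the heat groups and ERS1, EIN4, EIN2 and EIL1 lower, and none of the 9 was called between hd2b hd2c and WT.

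Heat moved most of the core, in the same directions in each genotype. In each genotype 2 of the 9 genes, EBF1 and EBF2, rose and 5, ETR1, ERS1, EIN4, EIN2 and EIL1, fell, while ETR2 and EIN3 did not pass the test. Over all genes, 29.9% were called higher and 31.5% lower in hd2b hd2c heat, and 31% higher and 34.8% lower in WT heat, so 7 of 9 called is close to the 61.5% and 65.8% called in either direction. The median log2 fold change of the 9 genes was -0.66 in hd2b hd2c and -0.53 in WT, beside -0.12 and -0.14 over all genes. With library totals in place of scaling factors, 1 of the 9 was called higher and 8 lower in hd2b hd2c, and 0 higher and 8 lower in WT, so the split depends on the scaling. The heat comparisons do not share libraries with each other.

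Among the 9 genes other than CTR1, EBF2 had the largest rise in each genotype. Its level was 171, 218 and 152 CPM in hd2b hd2c heat, as given above, against 52.4, 52.1 and 32.7 CPM in hd2b hd2c normal, and the log2 fold change was 1.97 (SE 0.165, adjusted p = 6.81e-10). In WT it was at 154, 150 and 160 CPM after heat, against 48.0, 35.5 and 41.5 CPM at normal temperature, and the log2 fold change was 1.89 (SE 0.165, adjusted p = 1.12e-09). EBF2 stayed higher after heat with library totals, at 0.46 in hd2b hd2c and 0.36 in WT, but in WT it then missed the threshold (adjusted p = 0.0664). EBF1 rose by 1.00 in hd2b hd2c (SE 0.121, adjusted p = 2.04e-07) and by 0.70 in WT (SE 0.12, adjusted p = 2.37e-05). With library totals EBF1 turned to -0.52 in hd2b hd2c and -0.83 in WT.

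The genes that fell included 3 of the 4 receptors. ERS1 averaged 18.3 ± 2.12 CPM in hd2b hd2c heat and 42.7 ± 6.14 CPM in hd2b hd2c normal, against 19.1 ± 0.487 CPM in WT heat and 41.2 ± 1.22 CPM in WT normal (SD, n = 3 each). Its log2 fold change with heat was -1.26 in hd2b hd2c (adjusted p = 1.92e-08) and -1.11 in WT (adjusted p = 6.93e-08). EIN4 was at 1.88, 4.88 and 3.20 CPM in hd2b hd2c heat against 9.53, 8.82 and 9.81 CPM in hd2b hd2c normal, and at 2.15, 4.06 and 1.84 CPM in WT heat against 10.9, 8.71 and 10.2 CPM in WT normal. Its heat and normal libraries did not overlap, and its log2 fold change was -1.69 in hd2b hd2c (SE 0.285) and -1.90 in WT (SE 0.277). ETR1 fell by 0.66 in hd2b hd2c (adjusted p = 0.00726) and by 0.53 in WT (adjusted p = 0.0242). The WT call for ETR1 was lost without WT heat replicate 2 (-0.28, adjusted p = 0.186) or without WT normal replicate 1 (-0.45, adjusted p = 0.0967).

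ETR2, another receptor of the subfamily that holds EIN4, was not called in either genotype. It averaged 14.9 ± 1.98 CPM in hd2b hd2c heat and 11.9 ± 1.13 CPM in hd2b hd2c normal (log2 fold change 0.29, adjusted p = 0.139), and 12.8 ± 2.18 CPM in WT heat and 11.4 ± 0.295 CPM in WT normal (0.16, adjusted p = 0.392). Downstream, EIN2 fell with heat, with log2 fold changes of -0.98 in hd2b hd2c (SE 0.138, adjusted p = 1.81e-06) and -1.53 in WT (SE 0.138, adjusted p = 1.49e-09). EIL1 fell by 0.74 in hd2b hd2c (SE 0.143, adjusted p = 0.000107) and by 0.80 in WT (SE 0.141, adjusted p = 3.09e-05). EIN3 had log2 fold changes of -0.12 in hd2b hd2c (adjusted p = 0.547) and -0.14 in WT (adjusted p = 0.49). The paralogs EIN3 and EIL1 thus gave a call in one case and none in the other, and the difference between them was not tested.

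**Figure D4:**
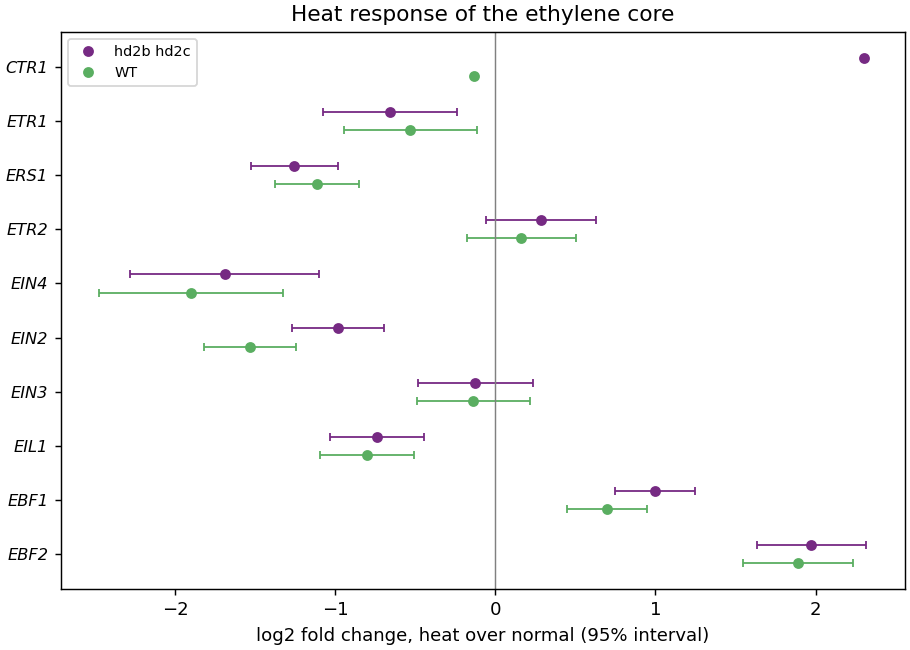
Log2 fold change of heat over normal for the 10 genes, in hd2b hd2c and in WT. Bars are 95% intervals from edgeR, and CTR1 is drawn without one. EBF1 and EBF2 lie above 0 and ERS1, EIN4, EIN2 and EIL1 below it in both genotypes, and CTR1 is the gene whose values in hd2b hd2c (2.30) and WT (-0.13) lie furthest apart.

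The balance between the F-box genes and the transcription factors they target was also read within each library. The sum of EBF1 and EBF2 divided by the sum of EIN3 and EIL1, in CPM per kilobase, was 3.9, 8.77 and 3.23 in hd2b hd2c heat and 3.05, 3.06 and 3.57 in WT heat. At normal temperature it was 1.29, 1.44 and 0.95 in hd2b hd2c, against 1.1, 0.913 and 0.997 in WT. Every heat library lay above every normal library, and the value of 8.77 belonged to hd2b hd2c heat replicate 2. The exact two-sided permutation test gave p = 0.1 for heat in each genotype, the smallest value that 3 libraries against 3 allow, so the design cannot reach 0.05 for this ratio. For hd2b hd2c over WT the same exact test gave p = 0.2 after heat and p = 0.3 at normal temperature.

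Outside the core, 55 other ethylene genes were listed and 47 of them were tested. After heat over all these lists, 18 were called higher and 13 lower in hd2b hd2c, and 22 higher and 10 lower in WT. Over all genes, 29.9% were called higher and 31.5% lower in hd2b hd2c, and 31% higher and 34.8% lower in WT. The lists held more higher calls and fewer lower calls than those shares, more so in WT than in hd2b hd2c. With library totals the split was 3 higher and 33 lower in hd2b hd2c, and 9 higher and 28 lower in WT. The lists were chosen with earlier results of these data known, and their counts are given as a description.

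Among 10 tested genes that act at the receptors, on EIN2 or beside EIN3, 3 rose and 4 fell with heat in hd2b hd2c, and 3 rose and 3 fell in WT. These counts of 7 and 6 of 10 are near the 61.5% and 65.8% of all genes called in hd2b hd2c and in WT. RTE1, which keeps ETR1 in its signalling form, was at 13.9 ± 1.36 CPM in hd2b hd2c heat and 5.82 ± 1.32 CPM in hd2b hd2c normal, and at 14.1 ± 1.62 CPM in WT heat and 6.95 ± 1.62 CPM in WT normal (SD, n = 3 each). It rose together with its homologue RTH and with ARL, a relative of the growth regulator ARGOS, and all 3 turned below 0 with library totals. ETP1, an F-box protein that marks EIN2 for degradation, fell by 2.33 in hd2b hd2c (adjusted p = 1.83e-09) and by 2.57 in WT (adjusted p = 2.06e-10). RAN1, the copper transporter that loads the receptors, fell by 0.73 in hd2b hd2c and by 0.95 in WT, and EIL3, a relative of EIN3, by 1.03 and 0.82. ETP2, the partner of ETP1, fell by 0.78 in hd2b hd2c and stood at -0.57 in WT without a call, and its interaction was not called (-0.205, adjusted p = 0.939, edgeR). The median of this list was -0.15 in hd2b hd2c and -0.36 in WT. In the genotype comparisons 0 genes of it were called by edgeR, with 0 at an unadjusted p under 0.05 and 0 by DESeq2. Over all genes edgeR called 2.65% at normal temperature, 2.76% after heat and 0.336% in the interaction, so 0 of 10 does not set this list apart. Single libraries decided some heat calls of this list. The hd2b hd2c call of RTH was lost without hd2b hd2c heat replicate 1 or 3 or hd2b hd2c normal replicate 1 or 2 (adjusted p up to 0.0957). That of ETP2 was lost without hd2b hd2c heat replicate 1 or hd2b hd2c normal replicate 2 (up to 0.183), and the WT call of EIL3 without WT normal replicate 2 (adjusted p = 0.0502).

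Of 15 tested biosynthesis genes, 8 rose and 3 fell with heat in each genotype, with median log2 fold changes of 0.91 in hd2b hd2c and 1.34 in WT. Over all genes 29.9% were called higher and 31.5% lower in hd2b hd2c, and 31% higher and 34.8% lower in WT. The 11 of 15 called in either direction is close to the 61.5% and 65.8% of all genes. By direction, the 8 higher calls are above the share of all genes and the 3 lower calls below it, in each genotype. The medians turned to -0.51 and -0.16 with library totals. ACS7, an ACC synthase, the enzyme of the committed step of ethylene synthesis, was at 12.3, 14.6 and 11.2 CPM in hd2b hd2c heat against 0.43, 0.573 and 0.278 CPM in hd2b hd2c normal. In WT it was at 8.07, 9.71 and 11.7 CPM after heat against 0.422, 0.287 and 0.177 CPM at normal temperature. Its log2 fold change was 4.85 in hd2b hd2c and 4.97 in WT. ACS5, ACS6 and ACS11 rose as well, by 2.05, 1.82 and 1.70 in hd2b hd2c and by 2.87, 3.28 and 3.33 in WT. Counts of ACS5, ACS7 and ACS11 summed over the 3 libraries were 58, 39 and 70 in hd2b hd2c normal. In WT normal they were 28, 26 and 25, so these fold changes start from levels near the floor. In hd2b hd2c the calls for ACS5 (adjusted p = 0.055) and ACS11 (adjusted p = 0.146) were lost without hd2b hd2c heat replicate 3. ETO1 and EOL1, which mark ACC synthases for degradation, fell by 0.66 and 0.85 in hd2b hd2c and by 0.66 and 1.31 in WT, and the ACC oxidase ACO5 fell by 0.68 in hd2b hd2c and 1.07 in WT. The hd2b hd2c call of ACO5 was lost without hd2b hd2c heat replicate 1 (adjusted p = 0.0578).

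Of 17 tested downstream genes, 5 rose and 6 fell with heat in hd2b hd2c and 10 rose and 4 fell in WT, with medians of -0.32 and 0.67 that became -1.80 and -0.87 with library totals. In hd2b hd2c these counts lie near the 29.9% of all genes called higher and 31.5% called lower, and in WT the shares of all genes were 31% and 34.8%. ERF4, a repressor of the ethylene response factor family, was at 275 ± 116 CPM in hd2b hd2c heat and 32.5 ± 2.83 CPM in hd2b hd2c normal, and at 201 ± 43.1 CPM in WT heat and 21.9 ± 4.06 CPM in WT normal (SD, n = 3 each). ERF6, ERF11 and ERF105 rose by 1.44, 1.58 and 0.78 in hd2b hd2c and by 3.80, 3.06 and 4.39 in WT. ERF11 was low at normal temperature, with 115 counts summed over the 3 hd2b hd2c normal libraries and 38 over the 3 WT normal libraries. PR4, a defence gene that ethylene induces, fell by 2.81 in hd2b hd2c and by 2.29 in WT. EDF1, which encodes a transcription factor of the RAV family, fell by 1.93 in hd2b hd2c and by 0.92 in WT, and the hook gene HLS1 fell by 0.73 in hd2b hd2c and 1.48 in WT. EDF2, a relative of EDF1, fell by 0.64 in hd2b hd2c and rose by 0.67 in WT, where library totals turned it to -0.87. CHIB, a chitinase gene, fell by 1.02 in hd2b hd2c and stood at -0.29 in WT without a call. ORA59, a defence regulator, stood at -0.81 in hd2b hd2c without a call and fell by 0.94 in WT. In the interaction edgeR called neither CHIB (-0.74, adjusted p = 0.495) nor ORA59 (0.13, adjusted p = 0.974). The WT call for ORA59 was lost without WT heat replicate 1 or 2 or WT normal replicate 1 or 3, with an adjusted p up to 0.131. The hd2b hd2c call for HLS1 was lost without any 1 of the 6 hd2b hd2c libraries other than normal replicate 2, or without WT normal replicate 1 or 3, with an adjusted p up to 0.119.

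Of 5 kinases of the same family as CTR1, EDR1 rose in each genotype, at 25.3 ± 1.89 CPM in hd2b hd2c heat and 13.4 ± 0.948 CPM in hd2b hd2c normal, and at 23.9 ± 2.84 CPM in WT heat and 13.5 ± 0.999 CPM in WT normal (SD, n = 3 each). With library totals EDR1 turned to -0.53 in hd2b hd2c and -0.69 in WT. AT4G24480 rose by 0.46 in hd2b hd2c (adjusted p = 0.0407) and stood at -0.09 in WT. That call was lost without hd2b hd2c heat replicate 1 or 2, any hd2b hd2c normal library or WT normal replicate 3, with an adjusted p up to 0.179. The interaction for AT4G24480 was not called (0.55, adjusted p = 0.57, edgeR). None of the 5 was called between genotypes by edgeR, although 2 had an unadjusted p under 0.05 at normal temperature and 2 after heat. DESeq2 called 1 higher and 1 lower after heat. Over all genes edgeR called 2.65% at normal temperature, 2.76% after heat and 0.336% in the interaction. With shares this low, 0 of 5 does not set the kinases apart.

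Some downstream genes differed between the genotypes at normal temperature and others did not. There 8 of the 17 tested downstream genes and 1 of the 15 tested biosynthesis genes were higher in hd2b hd2c, against 0.979% of all genes, and 0 were called lower by edgeR or by DESeq2. The downstream list held 21 genes. ERF1, ESE1, PDF1.2a and PDF1.2b had too few counts to be tested, so the list says nothing about them. The median log2 fold change of the downstream list was 0.70, beside 0.00 over all genes. The 9 downstream genes not called by edgeR included PR4 (log2 fold change 0.20, adjusted p = 0.638), CHIB (-0.06, 0.949), ORA59 (-0.32, 0.756) and HLS1 (0.19, 0.853). CTR1 was at 46.1 ± 2.23 CPM in hd2b hd2c normal and 40.3 ± 3.07 CPM in WT normal (SD, n = 3 each) in the same libraries. ERF105, an ethylene response factor, was at 6.05, 8.12 and 9.13 CPM in hd2b hd2c normal and at 0.764, 0.516 and 1.80 CPM in WT normal, with a log2 fold change of 2.87 ± 0.28 (SE) and an adjusted p of 1.28e-06 in edgeR. ERF6, a related factor, ran from 7.45 to 12.7 CPM in hd2b hd2c normal and from 2.47 to 3.93 CPM in WT normal, and its log2 fold change was 1.59 (adjusted p = 0.000319, SE 0.227). ACS6, an ACC synthase stabilised by stress-activated kinases, was at 19.6, 30.8 and 43.3 CPM in hd2b hd2c normal and at 9.96, 11.2 and 11.3 CPM in WT normal, and the log2 fold change was 1.54 ± 0.195 (SE), with an adjusted p of 0.000117.

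The other members called at normal temperature were ERF11 at 1.44 (adjusted p = 0.0306), ERF5 at 1.27 (0.0108), ESE3 at 0.89 (0.0396), EDF2 at 0.81 (0.00325), ERF104 at 0.76 (0.0024) and EDF1 at 0.71 (0.0261). For all 9 genes every hd2b hd2c library was above every WT library. The calls came from these same libraries, so this adds no support, and the share of all genes separated in this way is not given here. Leaving out 1 library at a time ended the call of ERF5 in 3 cases (adjusted p up to 0.112), of ERF11 in 5 (up to 0.144), of EDF1 in 5 (up to 0.201) and of ESE3 in 7 (up to 0.247). These cases were hd2b hd2c normal replicate 3 and WT normal replicates 1 and 2 for ERF5, and ERF11 added WT normal replicate 3 and hd2b hd2c normal replicate 2. For EDF1 they were WT normal replicates 1 and 2 and all 3 hd2b hd2c normal libraries, and for ESE3 all 6 normal libraries and hd2b hd2c heat replicate 1. With library totals 4 of the 9 genes were still called. The listed ethylene response factors also respond to other stress signals, and no value here separates ethylene from these.

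After heat, 0 of the 47 tested genes were higher in hd2b hd2c by edgeR and 3 were lower, against 1.59% and 1.18% of all genes, while 11 had an unadjusted p under 0.05 in either direction and DESeq2 called 1 higher and 6 lower. The ACC oxidase ACO4 was at 377, 340 and 441 CPM in hd2b hd2c heat and at 558, 580 and 540 CPM in WT heat, and its log2 fold change was -0.53 (adjusted p = 0.0199, SE 0.122). All hd2b hd2c libraries were below all WT libraries for ACO4, but its call was lost without hd2b hd2c heat replicate 1 or without WT heat replicate 1 or 2, with an adjusted p up to 0.099, and with library totals 0 of the 47 genes were called lower. ERF6 was at 21.4, 41.2 and 24.6 CPM in hd2b hd2c heat and at 43.2, 46.4 and 51.5 CPM in WT heat, with a log2 fold change of -0.77 and an adjusted p of 0.0484 that ran from 0.00065 to 0.268 over the alternatives. The ERF6 call was lost in 14 of 19 alternatives, among them the replicate block (adjusted p = 0.0547) and leaving out any 1 of 9 libraries. These were all heat libraries but hd2b hd2c heat replicate 2, all 3 WT normal libraries and hd2b hd2c normal replicate 2. Without hd2b hd2c heat replicate 2, 6 of the 47 genes were called lower.

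**Figure D5:**
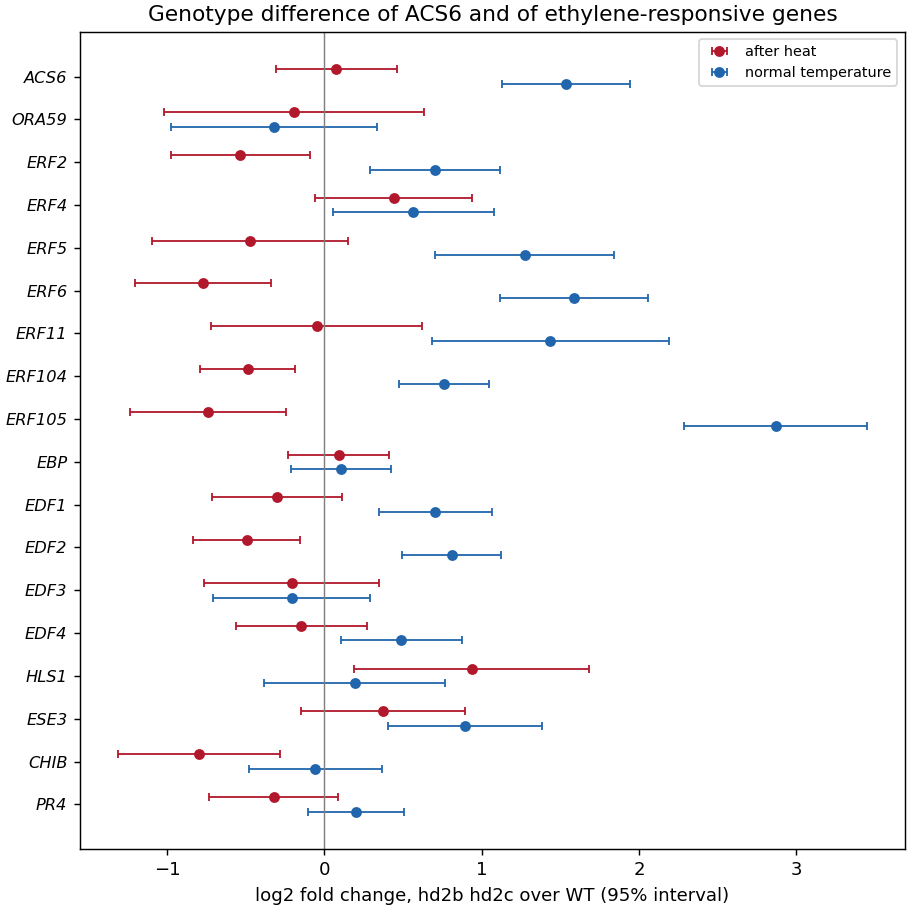
Log2 fold change of hd2b hd2c over WT for ACS6 and the 17 tested downstream genes, after heat and at normal temperature. Bars are 95% intervals from edgeR. ERF105, ERF6 and ACS6 stand at 2.87, 1.59 and 1.54 at normal temperature, whereas after heat ERF6 is at -0.77, a call that most alternatives did not keep.

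Tested genes outside the core were ranked by Pearson correlation with CTR1 of log2 CPM over the 12 libraries. The 5 with the highest values were PRT6 (r = 0.977), AT2G36810 (0.967), SUS2 (0.961), AT1G79245 (0.945) and AT4G37220 (0.938). PRT6 encodes an E3 ligase of the N-degron pathway, and SUS2 here is the locus AT1G80070. The libraries fall into groups, so the 12 points are not independent. PRT6 averaged 41.9 CPM in hd2b hd2c heat and 28.2 CPM in WT heat, against 27.7 CPM in hd2b hd2c normal and 26.5 CPM in WT normal. SUS2 averaged 189 CPM in hd2b hd2c heat and 139 CPM in WT heat, against 142 CPM in hd2b hd2c normal and 140 CPM in WT normal. The differences in these genes were smaller than that in CTR1. Core genes were left out of this ranking, so it does not show whether they follow CTR1.

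Some counts could hold reads of an overlapping gene, since it is not stated whether the counting used strand. ERS1 overlaps AT2G40935 on the opposite strand, which had 1781 counts in all libraries beside 8738 for ERS1. ETR1 overlaps AT1G66345 on the same strand, which had 251 counts beside 4185. EBF2 overlaps AT5G25340 on the opposite strand, which had 13 counts beside 19586, and AT5G03965, which was not analysed here. HD2B, ERF105, EIL3, ACO5, CHIB and AT4G24480 also overlap a gene on the opposite strand, and RTH one on the same strand. CTR1 overlaps no other gene in TAIR10.1.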

How the data were processed

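The authors deposited raw counts of reads per gene for 12 libraries of total RNA from seedlings, extracted with Trizol per the labels. HISAT2 2.1.0, featureCounts 2.0.3 and the TAIR10 genome are named in the submitters' processing notes. How strand and multiply aligned reads were handled is not given in the sources used here. Columns were matched to samples by name, and 0 columns were left unmatched. Replicates were compared by a chi-square test, and no pair held identical values or differed by less than sampling noise.

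Genes were kept by filterByExpr (minimum count 10, minimum total 15), and TMM factors scaled the libraries. The test was edgeR 4.0.16 (R 4.3.3), quasi-likelihood, robust and two-sided, in 1 model of the 4 groups from which 5 comparisons were taken. A gene was called when its Benjamini-Hochberg adjusted p over the 20232 genes was under 0.05. An approximate SE was obtained as |log2 fold change| / √F, and the 95% intervals use it. CPM values use the TMM factors, and log2 CPM a prior count of 2. The script was tested on simulated data. DESeq2 1.42.0, other scalings, no filter, only the compared groups, a replicate block and leaving out each library were the alternatives.

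The 10 core genes and all lists were chosen with earlier results of these data known. The text names all core genes, HD2B, HD2C and the nearest 3 features on each side of CTR1. From each list it names every gene called between genotypes and, for heat, the 3 called genes with the largest change each way. It also names the listed downstream genes that were not tested and the 5 genes outside the core most correlated with CTR1. The values of 1 listed gene that this rule takes are not reported here. The ratios within a library and the intervals of neighbouring genes around CTR1 were chosen after the data had been seen. Exon lengths, gene order, strands and names come from TAIR10.1, in which 28931 of 33330 features were matched. Coordinates and sequences are left out, since the processing notes name TAIR10 and not TAIR10.1.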

Additional observations from a re-analysis of the deposited data

Results flagged for a closer look

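The response to heat differed between hd2b hd2c and WT, by edgeR's interaction term over all genes, for 5 ethylene genes outside the core, each with a lower value in hd2b hd2c. All 5 were also called higher in hd2b hd2c at normal temperature, and both results use the same normal libraries. After heat edgeR did not call ERF105 (-0.74, adjusted p = 0.0996), ERF104 (-0.49, 0.0755), EDF2 (-0.49, 0.108) or ACS6 (0.08, 0.884) between genotypes. ERF6 was called there, but most alternatives did not keep that call. The interaction was -3.61 for ERF105 (SE 0.37, adjusted p = 1.44e-05), whose heat change was 0.78 in hd2b hd2c and 4.39 in WT. ERF105 was at 11.2, 16.2 and 14.0 CPM in hd2b hd2c heat and at 20.7, 23.2 and 23.2 CPM in WT heat. It was -2.36 for ERF6 (SE 0.308, adjusted p = 0.000603), whose heat change was 1.44 in hd2b hd2c and 3.80 in WT. For ACS6 it was -1.46 (SE 0.267, adjusted p = 0.0171), with 119, 106 and 106 CPM in hd2b hd2c heat and 99.8, 95.3 and 120 CPM in WT heat. The ACS6 levels of the genotypes overlapped after heat and did not at normal temperature.

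EDF2 had an interaction of -1.31 (SE 0.223, adjusted p = 0.00818), with 22.3, 23.2 and 21.2 CPM in hd2b hd2c heat and 27.7, 30.3 and 35.5 CPM in WT heat, against 25.7, 35.2 and 42.3 CPM in hd2b hd2c normal and 20.2, 17.3 and 21.2 CPM in WT normal. ERF104 had -1.25 (SE 0.201, adjusted p = 0.00443), with 19.9, 21.3 and 18.6 CPM in hd2b hd2c heat and 30.4, 25.5 and 27.1 CPM in WT heat, against 21.6, 24.2 and 28.3 CPM in hd2b hd2c normal and 13.2, 14.6 and 16.2 CPM in WT normal. The call of ACS6 was lost without any 1 of 5 libraries (hd2b hd2c heat replicate 2, WT heat replicate 3, hd2b hd2c normal replicate 2, WT normal replicates 1 and 2), with adjusted p-values up to 0.0704, and that of EDF2 without WT normal replicate 2 (adjusted p = 0.0507). With library totals ERF105 and ERF6 were still called, and the adjusted p of ACS6, ERF104 and EDF2 was 0.56. Over all genes 0.188% were called lower in the interaction. For 9 core genes other than CTR1 the interaction gave 0 calls in edgeR, with 1 at an unadjusted p under 0.05, and 0 in DESeq2.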

How the results depend on the processing

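Heat values depended on the scaling. Library totals moved the median of all genes to -1.56 with heat in hd2b hd2c and -1.67 in WT, and upper-quartile factors to -0.38 and -0.39. In the main fit, with TMM factors, the median stayed within 0.15 of 0. Leaving out hd2b hd2c heat replicate 3 with TMM factors gave -0.189 in hd2b hd2c. With library totals, core genes other than CTR1 called with heat were 1 higher and 8 lower in hd2b hd2c and 0 and 8 in WT, and other ethylene genes 3 and 33 in hd2b hd2c and 9 and 28 in WT. CTR1 with heat stood at 0.82 in hd2b hd2c and -1.66 in WT with library totals, and at 2.04 and -0.39 with upper-quartile factors. With library totals the sign turned in hd2b hd2c for ETR2 (-1.18), EBF1 (-0.52), ERF6 (-0.072), ERF105 (-0.69), ESE3 (-1.10), ACO4 (-0.064), RTE1 (-0.21), ARL (-0.54), RTH (-0.91), EDR1 (-0.53) and AT4G24480 (-1.004). It turned in WT for ETR2 (-1.38), EBF1 (-0.83), ERF5 (-0.26), ERF104 (-0.60), EDF2 (-0.87), ESE3 (-0.65), RTE1 (-0.50), ARL (-0.54), RTH (-0.69) and EDR1 (-0.69). Library totals left 4 other ethylene genes called higher between genotypes at normal temperature, 0 lower after heat and 2 lower in the interaction.

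With no filter, 1 core gene (EBF1) was called higher after heat, 5 other ethylene genes lower, and 8 lower in the interaction. DESeq2 called 1 core gene (EBF1) and 1 other gene higher and 6 other genes lower after heat. A fit of only the compared groups called 1 core gene (EIN3) and 2 other genes lower at normal temperature and 0 other genes lower after heat. Leaving out each library in turn gave 5 to 12 other genes higher at normal temperature, 0 to 1 core genes higher and 0 to 6 other genes lower after heat, and 3 to 6 lower in the interaction. The cause of these moves was not tested.

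Replicate numbers did not pair the libraries. Of 18 correlations between libraries of the same number, 1 was over 0.1 (range -0.132 to 0.146), and 0 libraries correlated best with their own number in every other group. With the replicate block, core genes other than CTR1 were called as often as without it (2 higher and 5 lower with heat in each genotype, 0 in the rest), and other ethylene genes were 7 higher at normal temperature, 2 lower after heat and 5 lower in the interaction. Depth limits EIN4, the normal-temperature levels of ACS5, ACS7, ACS11 and ERF11, and hd2b hd2c heat replicate 2, the shallowest library.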

Other observations

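The genes around CTR1 were counted in wider intervals of the TAIR10.1 order, with CTR1 left out and HD2C kept, an interval chosen after the data had been seen. Within 20 features on each side, 29 genes were tested, and after heat 4 were higher and 1 lower in hd2b hd2c than in WT (17.2%, against 2.76% of all genes). At normal temperature 3 were higher and 0 lower (10.3%, against 2.65%). The calls after heat included HSFA3, HD2C and AT5G03750, and those at normal temperature HD2C and AT5G03750. These genes are described above, and the wider intervals hold them too, so the shares in part recount them and are no separate support. AT5G03750 had few or no counts in WT, so it passed the filter through the hd2b hd2c libraries. Within 50 features on each side, with 74 genes tested, 5 were higher and 2 lower after heat (9.46%), and 3 higher and 2 lower at normal temperature (6.76%). Within 100 on each side, with 154 tested, 5 were higher and 2 lower after heat (4.55%), and 4 higher and 4 lower at normal temperature (5.19%). In the interaction edgeR called 0 genes within 20, 50 or 100 features, against 0.336% of all genes, with 4, 7 and 17 at an unadjusted p under 0.05. DESeq2 called 1, 2 and 2 higher and 0 lower there. No test of position was made.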
